A study of Mus musculus with 141 samples.

Results

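The 10 genes described here encode integrin subunits and were followed in mouse helper T cells: the alpha subunits Itgal, Itga4, Itga6, Itgae and Itgav, and the beta subunits Itgb1, Itgb2, Itgb3, Itgb7 and Itgb8. They were taken by name from the deposited expression table. They are 10 of 46517 genes in that table, and all 10 passed the filter on low values. Each was measured by RNA sequencing in 47 groups of 3 libraries, in CPM, a gene's reads scaled to the same total in every library.

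Naive CD4 T cells with the surface phenotype CD4+CD25-CD44lo had been sorted out of the lymph nodes and spleen of C57BL/6 animals, which are inbred mice. All stimulated groups received plate-bound antibodies to CD3 and CD28 and were collected at 9 times between 0.5 and 72 h. The sample titles number 6 courses. In courses 1 to 3 (57 libraries) the cells received IL6 with TGFb, a pair that starts the Th17 fate, or no cytokines, and were set against naive cells at 0 h. In courses 4 to 6 (84 libraries) they received IL6 and TGFb with IL1b (below, the IL1b cocktail), with IL21 (the IL21 cocktail), or with both, and those courses had their own naive 0 h group. The labels call the libraries of a group biological replicates. They do not say which mice or cultures the libraries share, so p-values measure the spread between these libraries. The sources used here do not give the age or sex of the mice. In these bulk samples, fewer expressing cells and less RNA per cell cannot be told apart.

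An integrin is a pair of an alpha and a beta subunit that spans the cell membrane and holds the cell to its surroundings or to other cells. Itgal with Itgb2 forms LFA-1, which binds ICAM proteins and holds a T cell to the cell that presents antigen. Itga4 with Itgb1 binds VCAM1 and fibronectin at inflamed vessels, Itga4 with Itgb7 binds MAdCAM-1 on vessels of the gut, and Itgae with Itgb7 binds E-cadherin on epithelium. Itga6 pairs mainly with Itgb1 in T cells and binds laminin. Itgav pairs with Itgb1, Itgb3 or Itgb8, binds matrix proteins and, above all with Itgb8, releases active TGF-beta from its latent complex.

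Libraries held 15.95 to 47.07 M counted reads (median 25.40 M). Markers of CD4 T cells were high before stimulation, with a mean of 1053 CPM for Cd4 and 618 CPM for Cd3e in courses 1 to 3. Among 8 B cell markers only Ighm stood high in naive cells (488 CPM). The summed level of 10 myeloid markers was 32.9 to 38.6 CPM in naive cells of courses 1 to 3. The no-cytokine library of course 1 at 72 h stood apart. Over genes, its root mean square distance from its group's mean was 0.620 on the log2 scale, against 0.338 and 0.329 for the libraries of courses 2 and 3 and a median of 0.156 over all libraries. In that library Nkg7, a gene of cytotoxic granules, was at 33.6 CPM, against 0.176 and 0.782 CPM in courses 2 and 3. The no-cytokine library of course 1 at 48 h was next among the late libraries (0.423), and late calls that change without course 1 are given both ways.

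Levels below are CPM scaled with TMM factors, which adjust for differences in RNA composition. Each change is a limma log2 fold change with its SE, on log2(CPM + 0.5), a scale that understates the change of genes near 0. A gene was called at a Benjamini-Hochberg adjusted p under 0.05 over all genes tested. The naive 0 h groups of both sets of courses did not differ for any of the 10 subunits in limma, edgeR or DESeq2, with 0 also at an unadjusted p under 0.05 in limma, while 0.15% of all genes were called.

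Per kilobase of exon (union of GENCODE M21 exons), naive cells carried most Itgb7, at 343 ± 9.67 CPM per kb (SD, n = 3). Itgb2 followed with 215 ± 3.99 and Itgal with 137 ± 3.17 CPM per kb. Itgb3 (36.9 ± 2.64), Itga4 (29.7 ± 3.63) and Itga6 (29.4 ± 1.18) formed a middle tier, in which Itga4 and Itga6 did not differ beyond their spread. Itgb1 stood at 12.8 ± 0.363 and Itgav at 2.89 ± 0.119 CPM per kb. Itgae (0.271 ± 0.106) and Itgb8 (0.0359 ± 0.0160 CPM per kb) were at the bottom. Itgb3 is also a major subunit of platelets; the platelet genes Pf4, Ppbp and Gp1bb were at 0 CPM in the naive cells, and Itga2b, its platelet partner, was at 3.90 CPM.

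**Figure D1:**
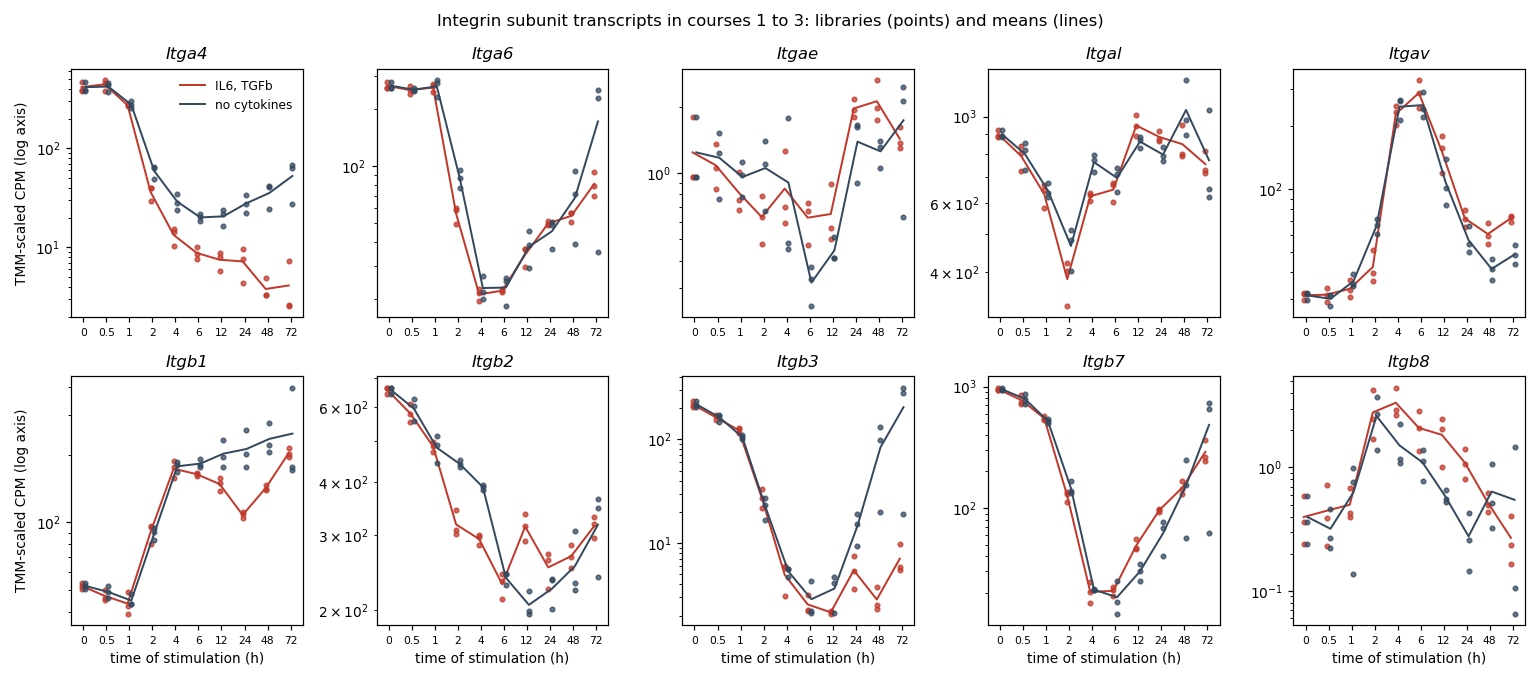
Level of each subunit (TMM-scaled CPM, log axis) against time of stimulation in IL6 and TGFb (red) and without cytokines (dark blue); points are libraries, lines join the means of 3, and both conditions start from the same naive 0 h libraries. Itga4, Itga6, Itgb3 and Itgb7 drop by 4 h, and Itgav reaches 287 CPM with IL6 and TGFb and 251 CPM without at 6 h. The curves of Itga4 are apart from 4 h on, and those of Itgb3 separate late.

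Within 2 h, stimulation through the receptor and CD28 alone changed most genes tested, among them 9 of the 10 subunits. Against naive cells, 6 subunits fell, 3 rose and Itgae was not called at 2 h, while 69.2% of all 14695 genes tested were called. At 24 h, 5 fell and 2 rose, with 72.7% of genes called, and at 72 h again 5 fell and 2 rose, with 65.4% called. The share of subunits called is thus near the share of all genes at 24 and 72 h. Whether the 9 of 10 at 2 h exceed the share of all genes was not tested. The 3 comparisons share the naive libraries. Their median log2 change over the 10 subunits was -0.76, -0.88 and -0.57 at 2, 24 and 72 h, beside -0.04, -0.03 and -0.01 over all genes.

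The subunits Itga4, Itgb7, Itga6 and Itgb3 lost most of their transcript. The first pair homes to the gut, and Itga6 binds laminin. Itga4 was at 64.4, 48.6 and 64.0 CPM after 2 h without cytokines in courses 1 to 3, against 474, 390 and 383 CPM in naive cells. No library overlapped, and the log2 fold change was -2.80 ± 0.27 (limma adjusted p = 2.8e-12). Itgb7 was at 133, 138 and 166 CPM after 2 h, against 982, 937 and 934 CPM in naive cells (-2.70 ± 0.44, limma adjusted p = 5.5e-07). Itgb3 was at 23.1, 16.9 and 27.2 CPM after 2 h, against 235, 206 and 212 CPM in naive cells (-3.27 ± 0.54, limma adjusted p = 7.4e-07). For both, all stimulated libraries lay below all naive ones. Itga6 was at 95.8, 76.5 and 86.2 CPM after 2 h, against 259, 278 and 259 CPM in naive cells (-1.61 ± 0.33, limma adjusted p = 2.9e-05).

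Markers of other cells moved in the same libraries. The sum of 8 B cell markers was 57.8 to 79.8 CPM after 2 h without cytokines, against 481 to 533 CPM in naive cells, that of 10 myeloid markers 13.2 to 20.6, against 32.9 to 38.6 CPM, and that of 6 NK and gamma-delta T cell markers 3.46 to 4.91, against 8.71 to 9.61 CPM. The sum of 2 CD8 T cell markers was 10.8 to 15.9 CPM after 2 h, against 16.7 to 23.97 CPM in naive cells, and that of 10 red cell and platelet markers overlapped, at 30.9 to 43.8, against 28.5 to 48.5 CPM. In naive cells Ighm (488 CPM) made up nearly all of the B cell sum and Cd8b1 (17.6 CPM) most of the CD8 sum. The part of these cells in the early fall was not tested.

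Without cytokines the lowest group means of these 4 genes came at 4 or 6 h. Itgb7 averaged 21.3 CPM at 4 h and 18.4 CPM at 6 h, against 951 CPM in naive cells. Itgb3 averaged 2.88 CPM at 6 h, against 218 CPM in naive cells. Itga6 averaged 22.9 CPM at 4 h and 22.99 CPM at 6 h, and Itga4 20.1 CPM at 6 h. They then differed in how far they came back. At 24 h without cytokines the log2 fold changes against naive cells were still -2.55 ± 0.33 for Itga6, -3.89 ± 0.27 for Itga4, -3.91 ± 0.54 for Itgb3 and -3.99 ± 0.44 for Itgb7. By 72 h Itgb7 was at 61.7, 652 and 737 CPM, Itgb3 at 18.9, 278 and 315 CPM, and Itga6 at 35.6, 228 and 252 CPM in courses 1, 2 and 3. In all 3 genes the library of course 1, the one that stood apart, was far below the other two. Itga4 stayed low in all 3 courses at 72 h, at 27.6, 67.5 and 62.9 CPM.

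Statistics at 72 h depend on that library. Against naive cells Itga4 was lower by -3.07 ± 0.27 with all courses and by -2.57 without course 1, and was called in both fits. Itgb7 was at -1.62 ± 0.44 (limma adjusted p = 0.0012) with all courses and at -0.44 (adjusted p = 0.074) without course 1. Itga6 was at -1.06 ± 0.33 (limma adjusted p = 0.0044) and at -0.17 (adjusted p = 0.36) without it, and edgeR did not call it with all courses (adjusted p = 0.057). Itgb3 was not called in either fit, at -0.87 ± 0.54 (limma adjusted p = 0.15) with all courses and 0.49 (adjusted p = 0.16) without course 1.

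Where the letters before the gene starts were at hand (RefSeq, build GRCm38.p6; 5 of the 10 subunits matched), they are shown for the pair that fell together, Itga4 and Itgb7, and for Itgav, which rose. Each is the 250 bases before the start, 5′ to 3′ on the strand of the gene. Capitals mark matches to a SMAD box (CAGAC), a GC box (GGGCGG) or a RUNX motif (TGTGGT) on either strand; a motif on the other strand reads GTCTG or ACCACA. 
Itga4, chr2:79255176-79255425, plus strand: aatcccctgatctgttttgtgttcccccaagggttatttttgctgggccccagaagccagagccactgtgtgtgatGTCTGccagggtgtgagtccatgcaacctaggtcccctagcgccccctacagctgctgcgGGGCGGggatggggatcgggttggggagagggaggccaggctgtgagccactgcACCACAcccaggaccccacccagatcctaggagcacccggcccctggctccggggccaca
Itgb7, chr15:102231936-102232185, minus strand: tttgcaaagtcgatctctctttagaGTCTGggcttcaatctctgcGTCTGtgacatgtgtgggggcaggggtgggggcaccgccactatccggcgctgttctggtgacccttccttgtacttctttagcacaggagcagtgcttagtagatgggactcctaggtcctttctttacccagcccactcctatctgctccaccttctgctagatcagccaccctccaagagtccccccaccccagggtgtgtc
Itgav, chr2:83724147-83724396, plus strand: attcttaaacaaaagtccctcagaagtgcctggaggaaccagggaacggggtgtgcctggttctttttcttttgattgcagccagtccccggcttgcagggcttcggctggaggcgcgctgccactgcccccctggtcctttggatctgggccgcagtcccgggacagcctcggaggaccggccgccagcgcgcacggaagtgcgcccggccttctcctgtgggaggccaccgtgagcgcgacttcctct

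Itga4 holds 1 match each to the SMAD box, the GC box and the RUNX motif, at -174, -114 and -60 bases from the start. Itgb7 holds 2 matches to the SMAD box, at -225 and -205. Itgb1 and Itgb8, whose letters are not shown, have 3 SMAD boxes (at -205, -176 and -81) and a GC box (at -151), and 1 SMAD box (at -196), in that order, so matches lie before subunits that rose as well as before those that fell. The RefSeq start of Itgb8 lies inside GENCODE transcripts of the gene, so its window may not be its promoter. The Itgav window holds no match to these motifs, nor to AP-1 (TGANTCA) or STAT (TTCNNNGAA) motifs, which had no match in the windows of Itga4 and Itgb7 either. Of 32851 RefSeq promoter windows of the same length, 42.2% hold a SMAD box, 32.7% a GC box, 6.75% the AP-1 motif and 7.02% the STAT motif, and 4614 windows hold the RUNX motif. Matches of such short motifs are common, and these letters describe the windows without showing that a factor binds there.

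Itgav, Itgb1 and Itgb8 rose instead. Itgav was at 61.0, 67.3 and 71.5 CPM after 2 h without cytokines, against 29.6, 32.0 and 31.6 CPM in naive cells (1.09 ± 0.14, limma adjusted p = 7.1e-09). It went on to 221, 241 and 292 CPM at 6 h and was back at 49.8, 66.5 and 54.6 CPM at 24 h, still above every naive library (0.85 ± 0.14, limma adjusted p = 1.3e-06). Itgb1, the common partner of Itga4, Itga6 and Itgav, was at 83.2, 94.8 and 90.4 CPM after 2 h, against 53.5, 50.6 and 52.3 CPM in naive cells (0.78 ± 0.16, limma adjusted p = 2.9e-05). Unlike Itgav it stayed high, at 176, 259 and 202 CPM at 24 h (1.99 ± 0.16) and 399, 171 and 176 CPM at 72 h (2.12 ± 0.16, and 1.74 without course 1). Itgb8 was at 1.39, 2.73 and 3.71 CPM after 2 h, against 0.240, 0.360 and 0.589 CPM in naive cells (1.75 ± 0.35, limma adjusted p = 2.1e-05). These Itgb8 values rest on few reads, 6 to 16 per naive library, and by 24 h the gene was not called, with a mean of 0.276 CPM. At 72 h it was at -0.02 (limma adjusted p = 0.97) with all courses and at -0.73 (adjusted p = 0.018) without course 1.

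The LFA-1 subunits changed less. Itgal dipped to 403, 484 and 514 CPM at 2 h without cytokines, against 891, 888 and 926 CPM in naive cells (-0.95 ± 0.12, limma adjusted p = 1.7e-09). It was at 771, 792 and 835 CPM at 24 h and no longer called. At 72 h it was called lower (-0.27 ± 0.12, limma adjusted p = 0.044), a call lost without course 2 or 3 (adjusted p = 0.56 and 0.58) and in edgeR and DESeq2, with a value of -0.51 without course 1. Itgb2 fell more slowly and stayed down, at 432, 449 and 440 CPM at 2 h and 237, 201 and 236 CPM at 24 h, against 663, 665 and 643 CPM in naive cells. Its log2 fold changes were -0.57 ± 0.10 at 2 h, -1.55 ± 0.10 at 24 h (limma adjusted p = 1.1e-17) and -1.08 ± 0.10 at 72 h. Across the 47 group means the Pearson r of Itgal and Itgb2 was 0.0005, a description over groups that share courses. Itgae was low in every group, with group means from 0.318 to 3.46 CPM, and was not called against naive cells at 2, 24 or 72 h. Itgae overlaps Haspin and Itga4 overlaps Cerkl on the other strand, as Itgav does Gm13684 and Dnmt3l-ps1, and Itga6 overlaps Gm17250 and Gm13739 there and Gm13663 and Gm13662 on its own strand. The sources used here do not say whether counting used strand, so reads of overlapping genes cannot be told apart.

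**Figure D2:**
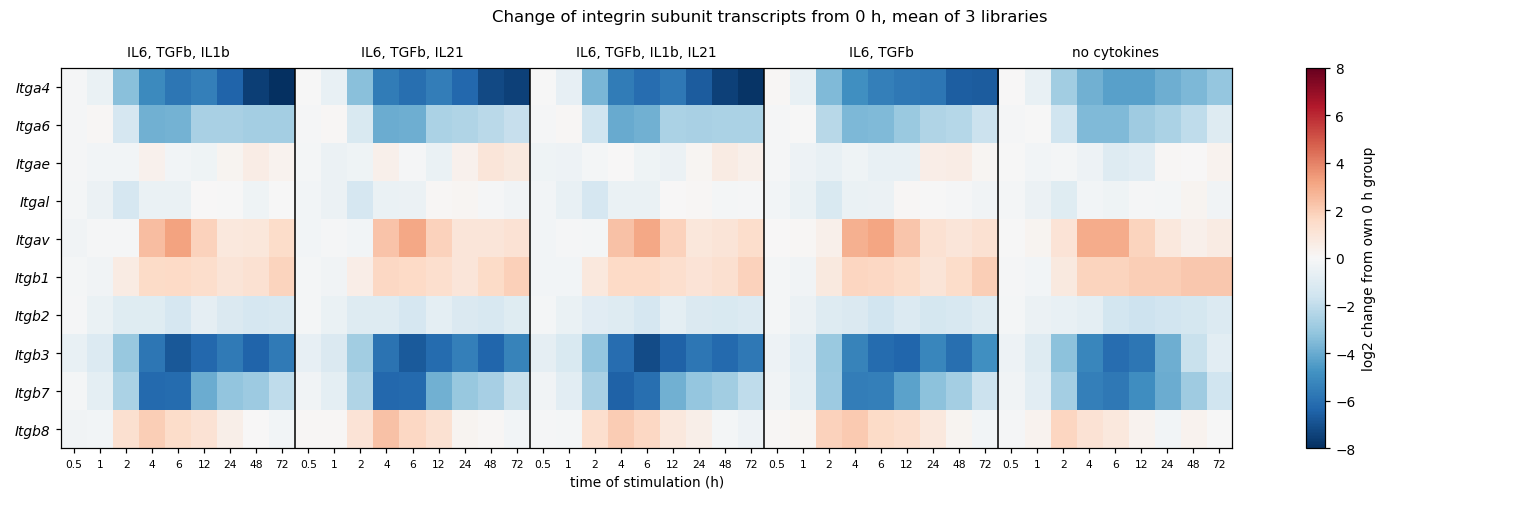
Mean log2 change of each subunit (rows) from its own course set's 0 h group at 9 times in 5 conditions (columns); blue is lower and red higher, on log2(CPM + 0.5). At 72 h Itga4 is at -3.07 without cytokines, -6.63 with IL6 and TGFb and -7.49 to -8.03 in the 3 cocktails, and Itgav at 6 h is at 2.99 to 3.23 in all 5 conditions.

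With IL6 and TGFb fewer subunits changed, among them Itga4, Itgb3, Itgav and Itgb1. Against no cytokines, limma called 0 of the 10 subunits at 0.5 h and at 1 h, with 0 at an unadjusted p under 0.05 and 0 by edgeR and DESeq2, while 0.612% and 7.96% of all genes were called. At 2 h it called 2, beside 12.4% of genes, and at 4 h also 2, beside 4.4%. At 6 h 1 subunit was called (4.61% of genes) and at 12 h 4 were (9.52%). The late counts were 3 at 24 h (26.1% of genes), 5 at 48 h (53%), and 3 after 72 h (46.3%). At 24, 48 and 72 h the share of subunits called is close to or below the share of all genes.

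**Figure D3:**
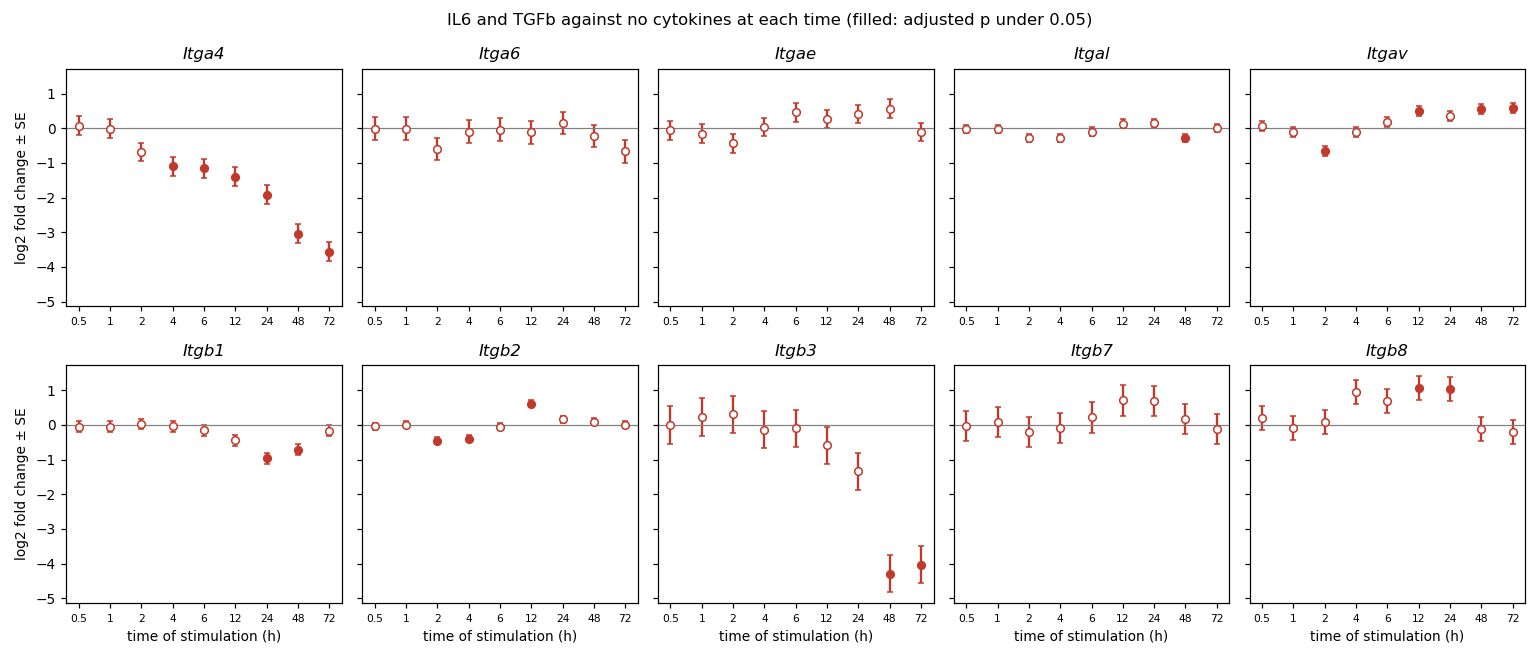
Fitted log2 difference between IL6 with TGFb and no cytokines (limma, bars ± SE) over time, 1 panel per subunit; filled points have an adjusted p under 0.05. The effect on Itga4 goes from -1.09 at 4 h to -3.57 at 72 h, that on Itgb3 reaches -4.29 at 48 h, and Itgav changes sign between 2 h (-0.65) and 12 h (0.50).

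Itga4 stayed down with IL6 and TGFb. At 24 h it was at 7.58, 9.66 and 4.37 CPM with IL6 and TGFb, against 33.9, 22.2 and 27.5 CPM without cytokines (-1.93 ± 0.27, limma adjusted p = 2.6e-07). At 72 h it was at 7.20, 2.55 and 2.603 CPM with IL6 and TGFb, against 27.6, 67.5 and 62.9 CPM without (-3.57 ± 0.27, limma adjusted p = 8.1e-15; -4.38 without course 1). No library overlapped at any of the 6 times from 4 to 72 h, at each of which Itga4 was called lower. By 4 h the log2 difference was -1.09 ± 0.27, and it reached -1.40 at 12 h and -3.05 at 48 h. At 4 and 6 h the call was lost when course 2 or course 3 was left out (limma adjusted p of 0.071 to 0.21), with log2 values of -1.002 to -1.27. Markers of other cells differed too. At 24 h the sum of the CD8 T cell markers was 1.98 to 2.65 CPM with IL6 and TGFb, against 32.8 to 40.7 CPM without cytokines. Nearly all of it was Cd8b1, with means of 2.14 and 35.7 CPM, beside 17.6 CPM in naive cells. Cd8a averaged 0.168 and 1.11 CPM, beside 1.81 CPM in naive cells. The sum of the B cell markers was 21.5 to 27.4, against 209 to 279 CPM, nearly all of it Ighm (20.9 and 232 CPM). Each other B cell marker averaged under 1 CPM in both conditions. Of the CD4 T cell markers, Cd4 averaged 331 CPM with IL6 and TGFb and 819 CPM without, and Cd5 865 and 581 CPM. The myeloid sums overlapped, at 4.46 to 6.598 CPM with IL6 and TGFb, against 4.75 to 4.798 CPM without, and so did those of the NK and gamma-delta T cell markers, at 2.09 to 2.48, against 1.91 to 2.12 CPM. At 72 h the CD8 sum, again nearly all Cd8b1, was 5.00 to 6.03 CPM with IL6 and TGFb, against 9.71 to 13.3 CPM without. Whether these sums stand for other cells, and their part in the difference of Itga4, was not tested.

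Itgb3 separated later. At 24 h its difference was -1.34 ± 0.54 and missed the threshold in limma (adjusted p = 0.060), while edgeR (adjusted p = 0.035) and DESeq2 (adjusted p = 0.020) called it, as limma did without course 1 (-1.13, adjusted p = 0.0055). At 48 h it was at 3.77, 2.50 and 2.31 CPM with IL6 and TGFb, against 19.8, 132 and 98.9 CPM without cytokines (-4.29 ± 0.54, limma adjusted p = 7.0e-09). At 72 h it was at 9.83, 5.48 and 5.92 CPM with IL6 and TGFb, against 18.9, 278 and 315 CPM without (-4.03 ± 0.54, limma adjusted p = 3.3e-08). The groups did not overlap at either time, and the no-cytokine libraries of course 1 were far below those of courses 2 and 3. Without course 1 the differences were -5.28 at 48 h and -5.53 at 72 h. Over the same 72 h libraries the summed level of 8 B cell markers, nearly all of it Ighm, was 12.6 to 23.1 CPM with IL6 and TGFb and 100.2 to 462 CPM without. The sum of 6 NK and gamma-delta T cell markers was 1.67 to 1.86 CPM with IL6 and TGFb, against 34.3, 3.02 and 4.72 CPM without in courses 1, 2 and 3, the first being mostly Nkg7; the part of these cells in the results was not tested.

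**Figure D4:**
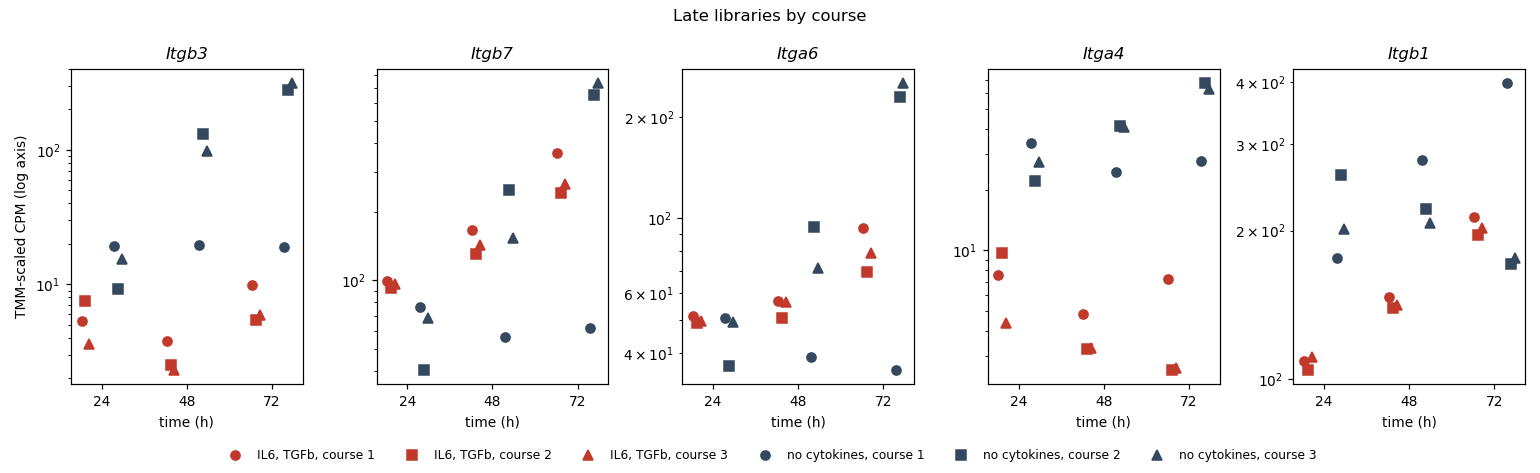
Level of 5 subunits (TMM-scaled CPM, log axis) at 24, 48 and 72 h in each library; red is IL6 and TGFb, dark blue no cytokines, and symbols give the course. At 72 h the no-cytokine library of course 1 is far below those of courses 2 and 3 for Itgb3 (18.9 against 278 and 315 CPM), Itgb7 (61.7 against 652 and 737) and Itga6 (35.6 against 228 and 252), and above them for Itgb1 (399 against 171 and 176).

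For Itgb7 and Itga6, the difference between the conditions at 72 h turned on the no-cytokine library of course 1. Itgb7 was at 364, 243 and 264 CPM with IL6 and TGFb, against 61.7, 652 and 737 CPM without cytokines. With all courses its difference was -0.12 ± 0.44 (limma adjusted p = 0.84); without course 1 it was -1.40 (adjusted p = 2.7e-06). Itga6 was at 93.5, 69.5 and 79.2 CPM with IL6 and TGFb, against 35.6, 228 and 252 CPM without. Its difference was -0.67 ± 0.33 (limma adjusted p = 0.091) with all courses and -1.64 (adjusted p = 6.9e-10) without course 1; edgeR and DESeq2 called it with all courses (adjusted p = 0.0022 and 0.0010). Itgal at 72 h was at 0.00 ± 0.12 with all courses and 0.31 (limma adjusted p = 0.015) without course 1. At 48 h Itga6 was at -0.23 (limma adjusted p = 0.58) with all courses and -0.57 (adjusted p = 0.0023) without course 1. At 24 h Itgb7 was at 0.68 (limma adjusted p = 0.27) with all courses and 0.84 (adjusted p = 0.0032) without it.

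Itgav, the subunit shared by the TGF-beta-releasing integrins, was lower with IL6 and TGFb at 2 h and higher at 12, 48 and 72 h. At 2 h it was at 36.3, 39.7 and 51.3 CPM with IL6 and TGFb, against 61.0, 67.3 and 71.5 CPM without cytokines (-0.65 ± 0.14, limma adjusted p = 0.0012). At 4 and 6 h the groups overlapped and the gene was not called. The difference between the conditions at 72 h was unlike that at 2 h for 4 of the 10 subunits, Itgav, Itga4, Itgb3 and Itgb2, beside 35.3% of genes (limma interaction). Without course 1 Itgb2 was not called (adjusted p = 0.073), and Itgal, Itga6 and Itgb7 were (adjusted p = 0.0043, 1.8e-04 and 0.0033). More genes were called in that fit as well, 6889 of 14278, against 5183 of 14695 with all courses. At 72 h Itgav was at 73.5, 74.3 and 69.8 CPM with IL6 and TGFb, against 53.7, 48.4 and 44.0 CPM without (0.57 ± 0.14, limma adjusted p = 0.0012). The values were 0.50 ± 0.14 at 12 h, where 1 or more libraries overlapped, and 0.54 ± 0.14 at 48 h, where none did. Both calls were lost when course 2 or 3 was left out (limma adjusted p of 0.055 to 0.32).

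Itgb8, a partner of Itgav, was higher with IL6 and TGFb in the middle of the course. At 12 h it was at 1.02, 2.46 and 2.04 CPM with IL6 and TGFb, against 0.523, 0.554 and 0.659 CPM without cytokines (1.06 ± 0.35, limma adjusted p = 0.042). At 24 h it was at 0.8003, 1.41 and 1.07 CPM with IL6 and TGFb, against 0.256, 0.144 and 0.428 CPM without (1.03 ± 0.35, limma adjusted p = 0.022). No library overlapped at either time, but the counts were 21 to 59 reads with IL6 and TGFb and 4 to 16 reads without. The 12 h call was lost in edgeR (adjusted p = 0.067), in DESeq2 (adjusted p = 0.056) and without course 2 (adjusted p = 0.66) or 3 (adjusted p = 0.24), and that at 24 h without course 2 (adjusted p = 0.36) or course 3 (adjusted p = 0.057).

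Itgb1 rose less far with IL6 and TGFb in the middle of the culture. It was at 109, 104 and 111 CPM with IL6 and TGFb at 24 h, against 176, 259 and 202 CPM without cytokines (-0.96 ± 0.16, limma adjusted p = 4.9e-06), with no overlap. At 48 h it was between 139.5 and 146.4 CPM with IL6 and TGFb, against 279, 221 and 207 CPM without (-0.72 ± 0.16, limma adjusted p = 1.8e-04). At 72 h Itgb1 was not called, at 214, 196 and 202 CPM with IL6 and TGFb, against 399, 171 and 176 CPM without. Its difference was -0.17 (limma adjusted p = 0.38) with all courses and 0.24 (adjusted p = 0.073) without course 1.

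Itgb2 crossed over. It was lower with IL6 and TGFb at 2 h, at 343, 309 and 302 CPM against 432, 449 and 440 CPM without cytokines (-0.46 ± 0.10, limma adjusted p = 9.3e-04), and at 4 h (-0.40 ± 0.10, limma adjusted p = 0.0089). At 12 h it was higher, at 336, 291 and 316 CPM with IL6 and TGFb, against 222, 199 and 196 CPM without (0.61 ± 0.10, limma adjusted p = 1.5e-05). At 4 h the call was lost without course 2 or 3 (limma adjusted p = 0.24 and 0.11). Itgal was called lower at 48 h alone (-0.29 ± 0.12, limma adjusted p = 0.039), where the libraries overlapped and the call was lost without course 1 (adjusted p = 0.069), 2 (0.20) or 3 (0.13). Itgae was called at none of the 9 times, with values at 24 h of 1.94, 2.16 and 1.79 CPM with IL6 and TGFb and 1.61, 1.66 and 0.899 CPM without. Its difference at 48 h was 0.56 (limma adjusted p = 0.072) with all courses and 0.74 (adjusted p = 0.032) without course 1.

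Over the whole culture with IL6 and TGFb, 6 subunits were lower at 72 h than in naive cells and 2 were higher, beside 74.8% of genes called. Itga4 was at 7.20, 2.55 and 2.603 CPM at 72 h, against 474, 390 and 383 CPM in naive cells (-6.64 ± 0.27, limma adjusted p = 1.4e-24). Itgb3 was lower by -4.90 ± 0.54, Itgb7 by -1.74 ± 0.44, Itga6 by -1.73 ± 0.33 and Itgb2 by -1.07 ± 0.10. Itgal was lower by -0.27 ± 0.12 (limma adjusted p = 0.040), a call that was lost when any 1 course was left out. Itgb1 was higher by 1.95 ± 0.16 and Itgav by 1.20 ± 0.14. Per kilobase of exon the order of the means at 72 h was Itgal (115 CPM per kb), Itgb7 (105), Itgb2 (103), Itgb1 (49.9), Itga6 (8.95) and Itgav (6.75), with Itgb3 at 1.20, Itgae at 0.312, Itga4 at 0.295 and Itgb8 at 0.0243 CPM per kb. These means are given without their spread. Close neighbours, such as Itgb7 and Itgb2 or Itgae and Itga4, were not tested against each other.

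At 72 h the cocktails of courses 4 to 6 were set against their own naive cells. With the IL1b cocktail 5 subunits fell and 2 rose (82% of genes called), with the IL21 cocktail 6 fell and 3 rose (80.5%), and with both cytokines 5 fell and 2 rose (81.4%). Itga4 was at 1.10, 1.57 and 0.680 CPM with the IL1b cocktail, against 364, 441 and 432 CPM in their naive cells (-7.95 ± 0.17). Its values were 1.48, 2.26 and 1.67 CPM with the IL21 cocktail (-7.41 ± 0.17) and 0.815, 1.73 and 1.51 CPM with both (-7.75 ± 0.17). Itgb3 was at -5.55 ± 0.18, -5.25 ± 0.18 and -5.65 ± 0.18 in that order, and Itgav at 1.57 ± 0.11, 1.23 ± 0.11 and 1.53 ± 0.11. The calls of Itgae (0.87 ± 0.30, limma adjusted p = 0.0076) and Itgal (-0.16 ± 0.07, limma adjusted p = 0.021) with the IL21 cocktail rested on course 4 and had adjusted p of 0.52 and 0.97 without it. Itgae was at 5.32, 1.498 and 2.61 CPM there, against 0.836, 1.74 and 1.81 CPM in naive cells. The 3 comparisons share their naive libraries.

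At 2 h Itgav averaged 29.9 CPM with the IL1b cocktail, 27.2 CPM with the IL21 cocktail and 28.9 CPM with both, beside 32.2 CPM in their naive cells; by 6 h the means were 306, 282 and 278 CPM. In courses 1 to 3 the 2 h means were 42.4 CPM with IL6 and TGFb and 66.6 CPM without cytokines. These are values from separate sets of courses, given side by side without a test.

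Among the cocktails, those with IL1b had lower late levels of Itga6. Averaged over 24, 48 and 72 h, the IL1b cocktail was lower than the IL21 cocktail for 3 subunits and higher for 0, while 11.4% of genes were called. Itga6 at 72 h was at 52.7, 36.6 and 34.8 CPM with the IL1b cocktail, against 98.4, 61.4 and 73.0 CPM with the IL21 cocktail, and no library overlapped at any of the late times (-0.56 ± 0.10 over the late times, limma adjusted p = 1.7e-05). Itga4 averaged 2.38 CPM with the IL1b cocktail and 2.97 CPM with the IL21 cocktail (-0.34 ± 0.10, limma adjusted p = 0.017), and Itgb7 155 and 179 CPM (-0.19 ± 0.06, limma adjusted p = 0.020); both overlapped. Without course 5 or 6 the calls of Itga4 (adjusted p = 0.13 and 0.31) and Itgb7 (0.12 and 0.27) were lost, and edgeR did not call Itga4 (adjusted p = 0.066). Without course 4, Itgal (-0.13, adjusted p = 0.019) and Itgb1 (-0.19, adjusted p = 0.020) were called as well.

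When IL1b was added to the IL21 cocktail, 2 subunits were called, both lower, beside 6.78% of genes. Itga6 averaged 46.8 CPM with both cytokines and 63.0 CPM with the IL21 cocktail (-0.42 ± 0.10, limma adjusted p = 0.0022; adjusted p = 0.21 without course 6). Itga4 averaged 2.26 CPM with both and 2.97 CPM with the IL21 cocktail (-0.34 ± 0.10, limma adjusted p = 0.027). Its call was lost in edgeR (adjusted p = 0.078) and when course 4, 5 or 6 was left out (limma adjusted p = 0.081, 0.28 and 0.11). When IL21 was added to the IL1b cocktail, limma called 0 subunits and 0% of genes late, with 0 subunits and 213 genes at an unadjusted p under 0.05, and edgeR and DESeq2 called 0 genes too. These 3 late comparisons share libraries.

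Between 4 and 12 h limma called 0 subunits in the cocktail comparisons, and edgeR and DESeq2 also 0. The shares of genes called were 0.229% for the IL1b against the IL21 cocktail, 0.00673% for IL1b added to the IL21 cocktail and 0.135% for IL21 added to the IL1b cocktail. At an unadjusted p under 0.05 the limma counts of subunits were 2, 1 and 2.

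**Figure D5:**
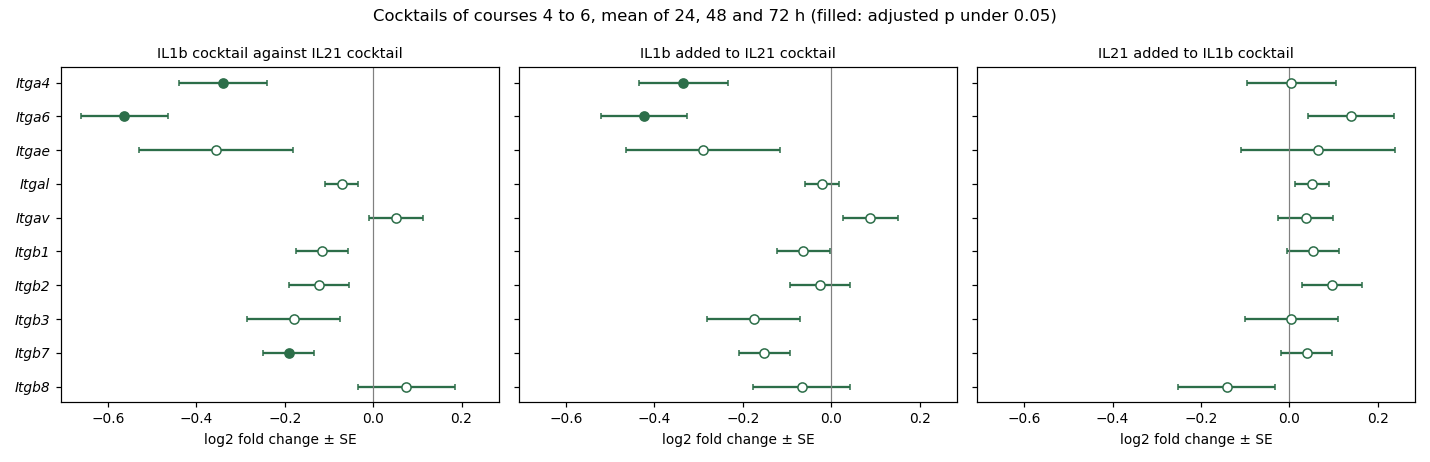
Log2 fold change ± SE (limma) of the 10 subunits over the mean of 24, 48 and 72 h, for the IL1b against the IL21 cocktail, IL1b added to the IL21 cocktail, and IL21 added to the IL1b cocktail; filled points have an adjusted p under 0.05. Itga6 is the farthest below 0 in the first 2 panels (-0.56 and -0.42), and no point is filled in the third.

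Cocktails and IL6 with TGFb came from separate courses, so they were compared after each set's own 0 h was subtracted; whatever else set the courses apart during culture cannot be told apart from the added cytokine. For the IL1b cocktail against IL6 and TGFb, 1 subunit was called beside 0.639% of genes. It was Itga4, at a late mean of 2.38 CPM with the IL1b cocktail and 5.04 CPM with IL6 and TGFb (-0.97 ± 0.26, limma adjusted p = 0.046), and the call was lost without course 1, 2, 5 or 6 (adjusted p of 0.062 to 0.60). For both cytokines the value of Itga4 was -0.96 ± 0.26 (limma adjusted p = 0.054), with 0 subunits called by limma, 1 at an unadjusted p under 0.05, 1 by edgeR and DESeq2 (adjusted p = 0.011 and 0.0059), and 0.522% of genes called. For the IL21 cocktail limma called 0 subunits and 0% of genes, with 1 subunit and 633 genes at an unadjusted p under 0.05; edgeR called 0 genes and DESeq2 called 6.

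Over the 47 group means, the most alike patterns were not those of subunits of the same integrin. The highest Pearson r on log2 levels was that of Itga6 and Itgb7 (0.95), followed by Itga4 with Itgb3 (0.92) and Itga6 with Itgb3 (0.91). Of the pairs that form integrins, Itgal with Itgb2 had 0.0005 and Itgae with Itgb7 0.14. The others had 0.61 for Itga4 with Itgb7, 0.61 for Itgav with Itgb8, 0.71 for Itgav with Itgb1, -0.80 for Itga4 with Itgb1, -0.83 for Itga6 with Itgb1 and -0.81 for Itgav with Itgb3. Among 9152 genes, the pattern most like Itga4 was that of Sidt1 (0.99), like Itgb3 Amigo2 (0.99), like Itgb7 AB124611 (0.98), like Itga6 Elf1 (0.98), like Itgav Abcc1 (0.96), like Itgal Prepl (0.96), like Itgb1 Eea1 (0.95), like Itgb8 Sik3 (0.94), like Itgb2 Fam134c (0.93) and like Itgae Reep4 (0.79). The groups share courses and time, so these values describe the patterns only.

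A pair of alpha subunits outside the set were much higher with IL6 and TGFb. Itga7, a partner of Itgb1 that binds laminin, was at 286, 194 and 198 CPM with IL6 and TGFb at 72 h, against 0.701, 15.9 and 3.09 CPM without cytokines (5.75 ± 0.39, limma adjusted p = 1.3e-16). Itga3, which also pairs with Itgb1 to bind laminin, was at 177, 250 and 179 CPM with IL6 and TGFb, against 21.9, 3.87 and 4.49 CPM without (4.66 ± 0.35, limma adjusted p = 3.0e-15). Of the 11 other integrin subunit genes tested, 3 were higher and 1 was lower at 72 h with IL6 and TGFb, with a median log2 change of 0.05 beside -0.05 over all genes. These 4 calls are a smaller share than the 46.3% of all genes called. Without course 1, a fit added for the gene lists after the data were seen, 4 were higher and 2 lower beside 57.8% of genes; Itga7 was then at 4.73 and Itga3 at 5.56. Lamc1, a laminin chain, was higher as well, at 180 CPM with IL6 and TGFb and 17.4 CPM without (3.37 ± 0.30).

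Of 26 tested genes for inside-out activation and adaptors, 4 rose and 18 fell at 24 h without cytokines against naive cells, with a median of -0.97; the 22 called compare with 72.7% of all genes, whose median was -0.03. Rasgrp2, the Rap1 exchange factor that switches integrins on, averaged 16.2 CPM at 24 h and 663 CPM in naive cells (-5.45 ± 0.70). At 72 h it was at 19.2, 6.54 and 8.64 CPM with IL6 and TGFb, against 4.54, 308 and 277 CPM without cytokines (-2.81 ± 0.70, limma adjusted p = 0.0011), where the libraries overlapped: in course 1 the level with IL6 and TGFb was above that without, and in courses 2 and 3 far below it. Without course 1 the difference was -5.14. With IL6 and TGFb at 72 h, 6 of these genes were higher and 8 lower (median -0.09), a share near the 46.3% of all genes, with 9 higher and 9 lower without course 1, beside 57.8%; Zyx, which gathers at adhesion sites, averaged 157 CPM with and 66.3 CPM without (1.24 ± 0.11).

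Of 9 tested genes that make or handle latent TGF-beta, the ligand complex of Itgav integrins, 3 were higher and 1 lower with IL6 and TGFb at 72 h, near the 46.3% of all genes called (3 and 4 without course 1, beside 57.8%). Furin, the protease that cuts pro-TGF-beta, averaged 830 CPM with IL6 and TGFb and 74.2 CPM without (3.56 ± 0.21), and Tgfb3 20.2 and 1.88 CPM (3.21 ± 0.31). Nrros, which holds latent TGF-beta on the cell, was lower, at 17.1 and 57.9 CPM (-1.72 ± 0.12). Among 13 ligands and counter-receptors, 6 were higher and 3 lower at 72 h, with a median of 0.45 beside -0.05 over all genes (7 and 2 of the 11 tested without course 1). Spp1, the Itgav ligand osteopontin, averaged 20.7 CPM with IL6 and TGFb and 1.28 CPM without (3.70 ± 0.19). Of 13 homing receptors, 6 were higher and 0 lower at 72 h in limma, again a share near the 46.3% of all genes. The count lower depends on course 1: without it 8 were higher and 3 lower. S1pr1, the receptor that lets T cells leave lymph nodes, was at 74.4, 40.1 and 55.4 CPM with IL6 and TGFb, against 8.41, 205 and 209 CPM without cytokines, at -0.40 ± 0.65 (limma adjusted p = 0.64) with all courses and -2.07 (adjusted p = 1.4e-06) without course 1. Gpr15, a receptor for entry to the colon, was at 100.2, 95.1 and 89.8 CPM with IL6 and TGFb, against 0.401, 0.316 and 0.716 CPM without (6.63 ± 0.24, limma adjusted p = 3.8e-26), while Itga4 of the gut-homing pair was lower in the same libraries.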

How the data were processed

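RNA was sequenced from naive and stimulated CD4 T cells in all libraries, each with 15.95 to 47.07 M counted reads. TopHat and HTSeq are named in the submitters' processing notes, as are 2 genome builds, GRCh37 (human) and mm9 (mouse); neither versions nor roles are stated. The authors deposited CPM per gene, in which every library sums to the same total. Dividing a library by its smallest value gave whole reads for 100% of values (tolerance 0.001), which served edgeR and DESeq2 as alternatives; no library was a copy of another (0 identical columns).

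CPM were scaled by TMM factors (0.779 to 1.18), and log2(CPM + 0.5) was fitted with limma-trend, with all groups of a course set in 1 fit. Each gene thus had 1 spread over all those groups, so a library that stood apart in a gene widens its SE at every time. A gene entered the fit if 3 or more libraries reached 1 CPM. This left 14695 genes for courses 1 to 3 (38 residual degrees of freedom), 14859 for courses 4 to 6 (56) and 15328 when all courses were fitted together (94). All adjusted p are Benjamini-Hochberg over those genes, from limma 3.58.1 unless edgeR 4.0.16 (quasi-likelihood) or DESeq2 1.42.0 is named, in R 4.3.3. The limma and edgeR fits, but not DESeq2, were tested on simulated counts. These counts had the same excess spread in every gene and no library that stood apart, so they do not test the fits under such a library. List genes outside the set were named from those called with a mean of at least 5 CPM. The pool was up to the 2 most changed per list and direction in 4 comparisons, and not every gene in it is named. Likeness used log2 group means. The members, lists and comparisons were chosen with earlier results of these data known.

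Course numbers come from the sample titles. Whether they pair libraries was checked by the correlation, over genes, of each library's deviation from its group mean. Each of the 3 correlations exceeded 0.1 for IL6 and TGFb against no cytokines at 0.5, 1, 2, 4 and 12 h (lowest 0.126, 0.389, 0.405, 0.234 and 0.307) and not at 6, 24, 48 or 72 h (lowest 0.020, 0.042, -0.099 and -0.391). The main fit has no course term; an alternative has one. Promoter letters come from RefSeq, GRCm38.p6; the files give symbols only, so no measured value was placed on a genome. Exon lengths come from GENCODE M21, not from the build the authors counted on.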

Additional observations from a re-analysis of the deposited data

Results flagged for a closer look

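The effect of IL6 and TGFb against no cytokines differed between 72 h and 2 h for 4 of the 10 subunits (limma interaction, adjusted over all genes, 35.3% of which were called). For Itga4 the effect at 72 h minus that at 2 h was -2.88 ± 0.39 on the log2 scale (adjusted p = 7.0e-08), and for Itgb3 it was -4.33 ± 0.76 (adjusted p = 1.2e-05). For Itgav it was 1.22 ± 0.20 (adjusted p = 6.1e-06), with the effect below 0 at 2 h and above 0 at 72 h. For Itgb2 it was 0.47 ± 0.14 (adjusted p = 0.0089), where the libraries of both conditions overlapped at 72 h. Without course 1, whose no-cytokine library at 72 h stood apart, the values were -3.72 for Itga4, -5.75 for Itgb3, 1.26 for Itgav and 0.34 for Itgb2, the last no longer called (adjusted p = 0.073). Itga6 (-1.08, adjusted p = 1.8e-04) and Itgal (0.55, adjusted p = 0.0043) were then called too, as was Itgb7 (-1.11, adjusted p = 0.0033). Over all genes 6889 of 14278 were called without course 1, against 5183 of 14695 with it. In that library of course 1 Ighm was at 96.4 CPM, against 455 and 387 CPM in courses 2 and 3, and Rasgrp2 at 4.54 CPM, against 308 and 277 CPM; their part in the difference was not tested.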

How the results depend on the processing

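Over 8 other ways of processing and the loss of each course in turn, 3067 values of the subunits were recomputed. A change of direction was counted only where either fit called the value. Values called in neither fit count as kept even where their sign changed. By this count 2949 kept their side of the threshold, 74 lost a call, 43 gained one and 1 reversed. That one was the difference of the IL6 and TGFb effect between 72 h and 2 h for Itgb7, at -1.11 without course 1 (limma adjusted p = 0.0033) and 0.08 with it (0.71 without course 3). Fits on only the libraries compared called 4 subunits for no cytokines against naive cells at 72 h, 4 for IL6 and TGFb at 2 h, 4 at 4 h and 6 at 24 h, 1 for IL1b added to the IL21 cocktail and 0 for the IL1b cocktail against IL6 and TGFb; 6 values of Itgae and 17 of Itgb8 fell below the filter there. Over all genes, fits on only the libraries compared called 6294 for no cytokines against naive cells at 72 h (9605 as reported). For IL6 and TGFb they called 1251 genes at 4 h (646 as reported) and 5301 at 24 h (3840). IL1b added to the IL21 cocktail gave 1 subunit with a pseudocount of 2, without the filter and in edgeR. The IL1b cocktail against IL6 and TGFb gave 0 without TMM, with a pseudocount of 2 and without the filter; both cytokines gave 1 with a pseudocount of 0.1, in edgeR and in DESeq2. The causes were not tested. Leaving out 1 course, the number called for IL6 and TGFb against no cytokines ran from 0 to 3 at 4 h, 0 to 1 at 6 h, 2 to 6 at 12 h, 2 to 5 at 24 h, 3 to 6 at 48 h and 3 to 6 at 72 h. It ran from 1 to 5 for the IL1b against the IL21 cocktail, 0 to 1 for IL1b added, and 0 to 1 for the IL1b cocktail against IL6 and TGFb. The calls over all genes moved as well. Without course 2 they were 229 at 4 h (646 as reported), 278 at 6 h (678), 736 at 12 h (1399), 2328 at 24 h (3840) and 4737 at 48 h (7791). Without course 1 they were 8482 at 48 h and 8252 at 72 h (6800). Without course 6 the 3 cocktail comparisons called 458 (1699), 333 (1008) and 36 genes (98).

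With the course as a replicate block, 3 calls were gained and 0 lost: Itgav at 24 h (0.35, adjusted p = 0.033), Itgae at 48 h (0.56, adjusted p = 0.041) and Itga4 with both cytokines against IL6 and TGFb (-0.96, adjusted p = 0.036; 1 subunit called). None is at a time where the course numbers pair the libraries. Without TMM the median of all genes moved to -0.22, against -0.04, for no cytokines at 2 h, where 36.2% of calls were higher, against 46.9%. For IL6 and TGFb the share of calls that were higher was 38.0%, against 52.0%, at 48 h and 38.6%, against 49.0%, at 72 h, and for the IL1b cocktail against IL6 and TGFb it was 67.6%, against 56.1%. Over all genes the calls for IL6 and TGFb at 72 h ran from 2972 to 8252 over the alternatives (6800 as reported), at 48 h from 4737 to 8482 (7791) and at 24 h from 2328 to 5301 (3840). Itgb8 and Itgae rest on as few as 2 and 7 reads in a library, which limits what can be seen in them.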
